A study of Oryzias latipes with 6 samples.

Results

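Complement is the blood-borne arm of innate immunity, and 76 of the 24365 genes in a medaka testis RNA sequencing table carry a complement name. They were chosen by their annotation, as genes whose symbol, description, best Swiss-Prot protein match or Pfam domain names a complement component, factor or receptor. The choice also listed the genes masp2 and c7b by name, and earlier results of these data were known when it was made. The 76 are not all complement genes. 38 are named for components, regulators or binding proteins of complement and are called complement genes below, though some have another protein as best match. 15 encode C1q/TNF-related and C1q-like proteins, which share the globular domain of C1q. The other 23 qualified only through the name of a Pfam domain (Complement Clr-like EGF-like) that fibulins, fibrillins and low-density lipoprotein receptors also carry.

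In complement, C1q or lectins bind a surface and activate serine proteases (C1r, C1s and the MASPs), which cleave C4 and C2, and the resulting enzyme cleaves C3, the central opsonin. Factors B and D with properdin build a second C3-cleaving enzyme, and C5 to C9 then assemble a pore in the target membrane, while factor H, factor I and membrane proteins hold the cascade back. In vertebrates the liver makes most soluble components and macrophages are a main source of C1q. Bony fish carry several copies of C3, C4 and C7, and their copies need not share the tissue in which they are made.

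The data came from 6 libraries of testis from Oryzias latipes. 3 libraries were from wild-type fish and 3 from fish labelled nphp4-/-. The testes of 2 fish went into each library. The nphp4 product, nephrocystin-4, belongs to the gate at the base of cilia. The series text calls the mutant a knockout, and the lesion, strain, age and mating of the fish are not described in the labels used here. Levels are in FPKM (sequenced fragments per length of gene, scaled by a total for each library), which allows levels of different genes to be set side by side. A log2 difference is the mutant minus the wild-type mean of log2(FPKM + 1), which understates the change of low genes. SE is its standard error, and SD is the spread of the 3 values in a group. Genes were tested with limma where the mean reached 1 FPKM in either group, and called at an adjusted p (Benjamini-Hochberg false discovery rate over all tested genes) below 0.05.

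Between 13438879 and 16054354 reads fell on genes per library. The total by which the FPKM were scaled was 13693794 in wild type 3, below its 15516979 reads on genes. In each other library this total was above the reads on genes. Set against a scale by reads on genes, FPKM are thus higher in wild type 3 and lower in the others. The median log2 difference of all tested genes was 0.01 on the deposited scale and 0.06 on that of reads on genes. Which scale is nearer the true levels was not tested. The transcript of nphp4 was at 17.1, 23.5 and 12.2 FPKM in wild type 1, 2 and 3 and at 6.84, 7.0 and 10.9 FPKM in mutant 1, 2 and 3 (log2 difference -0.99, SE 0.27, adjusted p = 0.436, limma), so the groups did not overlap but the gene was not called. Germ cell markers (951 to 1363 FPKM in sum over 5 genes) and Sertoli cell markers (894 to 1221 FPKM over 4 genes) were high in every library, as the tissue label says. Wild type 3 stood apart. Its 5 exocrine pancreas markers summed to 16125 FPKM against 249 to 2320 in the other libraries, and its 3 leukocyte markers to 58.1 FPKM against 15.5 to 31.1. Its 3 intestine markers summed to 277 FPKM, against 59.9 in mutant 2 and 0.257 to 1.30 in the rest. Values of named genes that lean on wild type 3 are therefore given with and without it. In a bulk tissue, fewer cells of a type and less RNA per cell cannot be told apart.

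No complement gene was called between mutant and wild-type testis. Of those abundant enough for the test, the 2 with the largest log2 differences went in opposite directions: masp2, a protease gene of the lectin pathway, was 4.15-fold higher in the mutant, and c7b, which encodes a copy of the pore component C7, was at 0.242 of its wild-type level. A C3 gene on chromosome 21 and 3 C1q/TNF-related genes were higher in each mutant library, a C1s gene was lower in each, and the abundant C1q genes overlapped between the groups. Of the 76 members, 35 passed the filter on low values and 41 did not, so the following counts describe only those 35. Calls at an FDR below 0.05 numbered 0 of 35, where 0.0592% of all 15203 tested genes were called (9 genes). An unadjusted p below 0.05 in limma was found for 9 of the 35 (25.7%), 5 higher and 4 lower, against 7.13% of all tested genes. The groups did not overlap in 11 of the 35 (31.4%), against 14.0% of all tested genes. The median log2 difference was 0.05 for the 35 members and 0.01 for all tested genes. The members were chosen with results of these data known, masp2 and c7b by name. That these 2 lie at the extremes is therefore no independent evidence. The filter itself also favours genes that are high in 1 group.

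**Figure D1:**
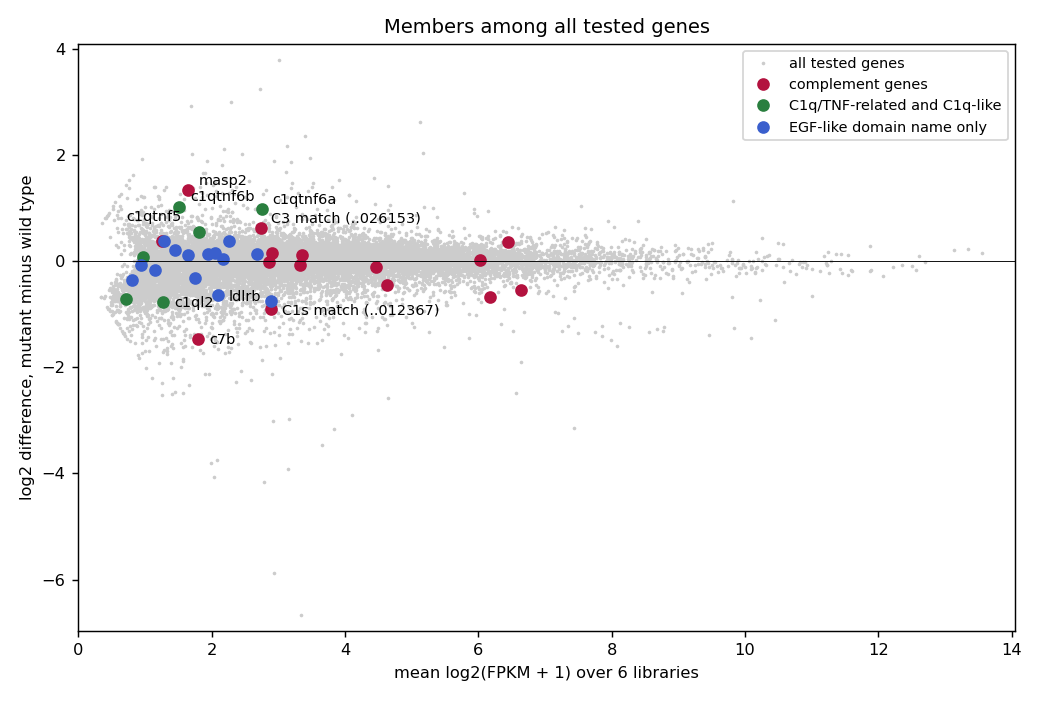
Each point is a tested gene, with its mean log2(FPKM + 1) over the 6 libraries on the horizontal axis and its log2 difference (mutant minus wild type) on the vertical axis. Red points are complement genes, green points C1q/TNF-related and C1q-like genes, and blue points genes with only the EGF-like domain name. The labelled points are the 9 members with an unadjusted p below 0.05, with masp2 at 1.34 and c7b at -1.47 the furthest from 0.

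The transcripts of C1q, the starting protein of the classical pathway, were among the most abundant of complement. The gene that matches C1qC, a chain of the C1q recognition molecule (ENSORLG00000017257, chromosome 5, 32432976 to 32434365, plus strand), was at 79.0, 95.6 and 223 FPKM in wild type 1, 2 and 3 and at 89.9, 109 and 55.6 FPKM in mutant 1, 2 and 3. The gene that matches C1qA, another chain (ENSORLG00000019405, 9775 bases away on the same strand), was at 52.0, 71.7 and 197 FPKM in wild type and at 54.9, 72.3 and 44.1 FPKM in the mutant. For both genes wild type 3 was the highest library and mutant 3 the lowest, and the other 4 libraries lay between them in no order of genotype. The log2 difference was -0.54 (SE 0.44, adjusted p = 0.854, limma) for C1qC and -0.68 (SE 0.50, adjusted p = 0.841, limma) for C1qA. Without wild type 3 these became -0.09 and -0.12, and without wild type 3 and mutant 3 both were above 0, at 0.19 and 0.05.

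The C1qA and C1qC genes varied together, placing the libraries in the same order of level. C1qA made up 39.7%, 42.9% and 47.0% of their summed FPKM in wild type and 37.9%, 39.9% and 44.2% in the mutant. Between the groups this share gave p = 0.5 (exact permutation test, 2-sided), a test that does not measure how the genes vary together. The sum of the leukocyte markers was also highest in wild type 3, but lowest in wild type 1. It was 15.5, 31.1 and 58.1 FPKM in wild type and 24.7, 26.0 and 18.1 FPKM in the mutant. 4 macrophage markers summed to 3.88 to 14.8 FPKM in wild type and 5.60 to 9.12 in the mutant. Single markers differed. ptprc, coro1a, MPEG1 and spi1b were highest in wild type 3. cd79a was highest in wild type 2, at 4.62 FPKM against 0.994 in wild type 3. csf1ra was higher in each mutant library (0.582 to 1.598 FPKM in wild type, 1.75 to 2.27 FPKM in the mutant). ctss was at no more than 0.0572 FPKM. The part of leukocytes and macrophages in the C1q levels was not tested. A gene described as a C1q subunit B-like (ENSORLG00000027482), which matches a collagen, stayed at 0.0557 to 0.575 FPKM, and a second gene described as C1q subunit C (ENSORLG00000026388) at 0.0883 to 0.768 FPKM. In the latter each mutant library was below each wild-type library, if barely for wild type 2 and mutant 1 (both 0.216 FPKM), from 98 wild-type and 36 mutant reads.

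**Figure D2:**
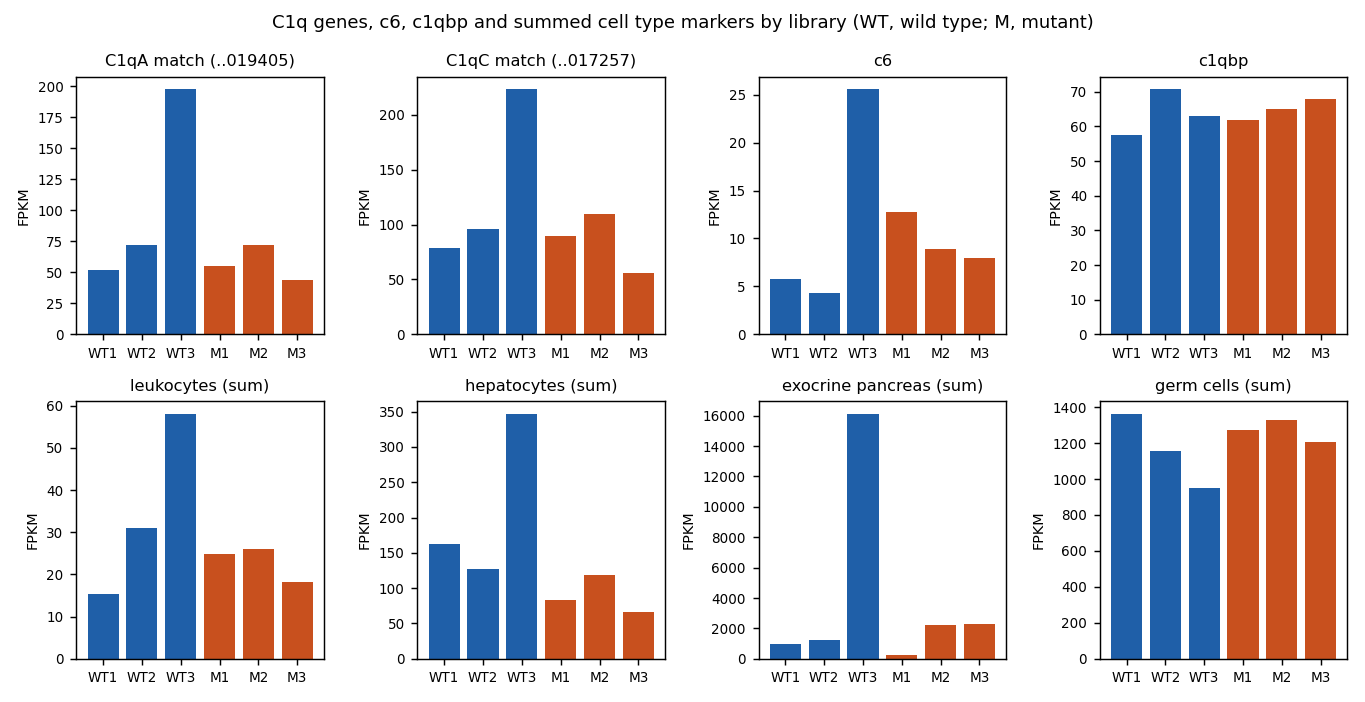
Bars give FPKM in each library, for 4 complement genes in the upper row and for summed cell type markers in the lower row, with wild type in blue and the mutant in orange. Wild type 3 is the highest bar for both C1q genes, c6 and the leukocyte, hepatocyte and exocrine pancreas markers, whereas c1qbp lies between 57.4 and 70.7 FPKM and the germ cell markers are lowest in wild type 3, at 951 FPKM.

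The proteases that C1q activates were unequal. The C1s gene (ENSORLG00000012367, chromosome 16, 20344581 to 20351555, minus strand), whose product cleaves C4 and C2, was at 6.87, 7.56 and 14.6 FPKM in wild type and at 5.66, 5.02 and 3.05 FPKM in the mutant. All 3 mutant libraries were below all 3 of wild type, and wild type 3 was the highest by a wide margin (log2 difference -0.90, SE 0.31, unadjusted p = 0.0236, adjusted p = 0.586, limma). Without wild type 3 the log2 difference was -0.59 (adjusted p = 0.590, limma). Its neighbour c1r, named for the protease that activates C1s but with MASP1 as its best protein match, had 0, 2 and 2 reads in wild type and 2, 3 and 0 reads in the mutant. C1s was thus read in every library, at 157 to 629 reads, while c1r never exceeded 3 reads.

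The only lectin pathway protease among the members was masp2, the gene of the protease that cleaves C4 and C2 once a lectin has bound (ENSORLG00000029620, chromosome 7, 9503929 to 9511608, plus strand). Its level was 0.706, 1.03 and 1.18 FPKM in wild type and 3.25, 4.84 and 3.96 FPKM in the mutant, from 27, 36 and 37 reads against 107, 152 and 149. The lowest mutant library was thus well above the highest wild-type library, and the spread within each group was small, with means of 0.969 ± 0.240 and 4.02 ± 0.793 FPKM (SD, n = 3). The log2 difference was 1.34 (SE 0.20), with an unadjusted p of 0.00024, rank 28 of 15203 genes, and an adjusted p of 0.126 in limma. As its wild-type mean was below 1 FPKM, masp2 passed the filter only through the mutant group, where it is high. With the filter removed, the unadjusted p in limma was 0.00026 and the adjusted p 0.182. In a design of 3 against 3 libraries, the 2-sided exact permutation test cannot give less than its value here, p = 0.1. Over 14 alternatives the log2 difference stayed between 1.23 and 2.11 and the adjusted p in limma between 0.0871 and 0.472.

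The masp2 model has limits of its own. The deposited domains of masp2 include CUB, through which MASPs bind lectins and each other, but not the trypsin domain that carries the protease activity. Its last 1355 bases also overlap dffa, an inhibitor of a DNA-cutting nuclease of apoptosis, on the opposite strand, and counting by strand is not stated. dffa was at 7.44, 6.42 and 6.03 FPKM in wild type and at 8.15, 9.51 and 6.50 FPKM in the mutant (log2 difference 0.24, adjusted p = 0.841, limma), so its groups overlapped. masp2 lies 8.83 Mb from nphp4 on the same chromosome. Among the cell type markers, the sum of 4 endothelial genes was also higher in each mutant library (2.66 to 4.77 FPKM in wild type, 5.50 to 10.9 FPKM in the mutant), while that of 19 hepatocyte genes was lower in each (127 to 347 and 65.9 to 118 FPKM). Of the endothelial genes, pecam1 (1.17 to 3.34 and 3.65 to 7.71 FPKM) and kdr (0.534 to 0.744 and 0.775 to 1.57 FPKM) kept the groups apart, whereas cdh5 and tie1 overlapped. The part of either cell type in the level of masp2 was not tested.

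**Figure D3:**
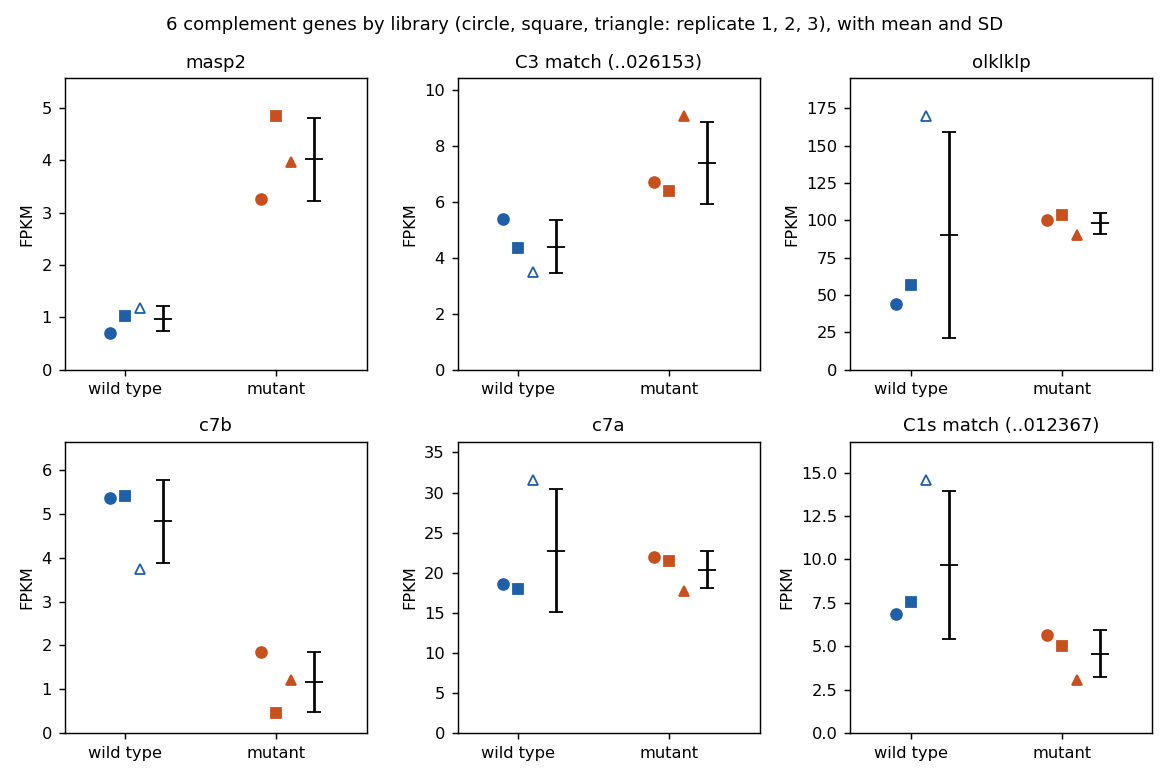
Points are FPKM per library for 6 complement genes, with circles, squares and triangles for replicates 1, 2 and 3, and bars for mean and SD (n = 3). masp2 and the C3 gene are higher in every mutant library, c7b and C1s are lower in every mutant library, and for c7a and olklklp wild type 3 (open triangle) is above all others, at 31.6 and 169.5 FPKM.

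Among the genes of C2, factor B and factor D, 1 was abundant. olklklp, a kallikrein-like serine protease gene whose best match is factor D, the protease that cleaves factor B (ENSORLG00000017983, chromosome 22, 22327590 to 22332199, minus strand), was at 44.2, 56.7 and 169.5 FPKM in wild type and at 100.2, 103 and 90.2 FPKM in the mutant. The mutant libraries lay close together, between wild type 2 and wild type 3 (log2 difference 0.37, SE 0.48, adjusted p = 0.894, limma). Without wild type 3 the log2 difference was 0.95 (SE 0.15, unadjusted p = 0.00059, adjusted p = 0.178, limma), and without wild type 1 it was -0.01. The pancreas marker trypsin (prss1), a protease of the same fold, was at 461, 704 and 8632 FPKM in wild type. In mutant 1, 2 and 3 it was at 156, 1164 and 1141 FPKM. The part of pancreas RNA in the level of olklklp was not tested.

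The genes of factor B, the substrate of factor D, and of C2 were low. bf/c2, described as factor B, which forms the C3-cleaving enzyme of the alternative pathway, had 5 to 18 reads per library (0.0764 to 0.226 FPKM). Its neighbour ENSORLG00000026836, the other factor B match, had 8, 4 and 8 reads in wild type and 0, 1 and 3 reads in the mutant. A C2 match on chromosome 13, for the classical pathway counterpart of factor B, was at 0.362 to 1.17 FPKM in wild type and 0.156 to 0.416 in the mutant. None of these 3 reached the level needed for the test.

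C3, C4 and C5 are related proteins that are cleaved in the cascade, and 11 of their 12 genes were below the filter. The one tested was a C3 match on chromosome 21 (ENSORLG00000026153, 27434738 to 27448608, minus strand). It was at 5.38, 4.34 and 3.47 FPKM in wild type and at 6.70, 6.38 and 9.05 FPKM in the mutant, so each mutant library was above each wild-type library. The means were 4.40 ± 0.958 and 7.37 ± 1.46 FPKM (SD, n = 3), a ratio of 1.68 (log2 difference 0.64, SE 0.20, unadjusted p = 0.0143, adjusted p = 0.510, limma). Its model is short, 1284 bases against 5059 for c3-1, and its deposited domains are those of the C-terminal end of C3.

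A cluster of C3 genes spans 996.1 kb of chromosome 1, and its 5 genes together had few reads. c3b.2 at 1 end had 7, 10 and 26 reads in wild type and 1, 1 and 5 reads in the mutant. At the other end c3-1 had 0, 3 and 6 reads in wild type and 13, 12 and 15 reads in the mutant, and c3-2 had 2, 1 and 7 reads against 10, 24 and 60. In c3b.2 the wild-type libraries were the higher ones, and in c3-1 and c3-2 the mutant libraries were, with no overlap in each case. With the filter removed, the unadjusted p in limma was 0.0741 for c3b.2, 0.0176 for c3-1 and 0.0385 for c3-2, and the adjusted p was 0.747, 0.538 and 0.666.

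Inside the span of c3-2, on the same strand, lies a further C3 match (ENSORLG00000023460, chromosome 1, 28065896 to 28078361, minus strand). It had 8, 16 and 13 reads in wild type (0.375, 0.819 and 0.741 FPKM) and no read in any mutant library. Against a floor of 3 reads over the mutant group, 0.0528 FPKM, it was at least 12.2-fold lower in the mutant. Without the filter its log2 difference was -0.71 (unadjusted p = 0.000903, adjusted p = 0.240, limma). The fifth gene, the C3 match ENSORLG00000018160, had 0 to 8 reads per library with no order by genotype. Sequencing reads may be split wrongly among near-identical copies, so the single genes are uncertain. On chromosome 1 as a whole, 14.3% of the 803 tested genes (115) were at an unadjusted p below 0.05 in limma, against 7.13% of all tested genes.

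**Figure D4:**
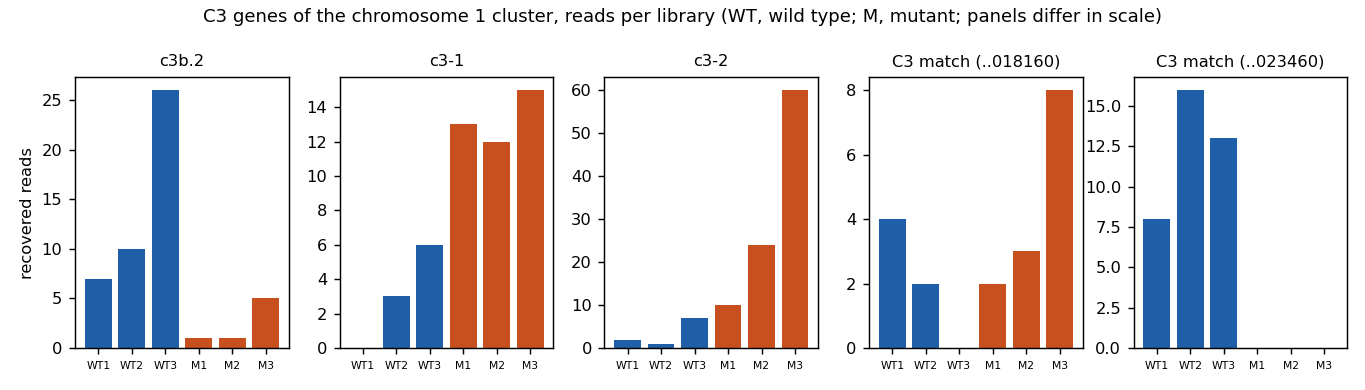
Bars give the reads recovered from the FPKM of each C3 gene of the chromosome 1 cluster, per library, with wild type in blue and the mutant in orange and a scale of its own in each panel. c3-1 and c3-2 have more reads in each mutant library (10 to 60) than in any wild-type library (0 to 7), and ENSORLG00000023460 has 8 to 16 reads in wild type and none in the mutant.

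The remaining C3, C4 and C5 genes showed no order by genotype. The pair of neighbouring C4 genes on chromosome 16, whose product joins C2 in the classical C3-cleaving enzyme, was at 0.219 to 0.944 FPKM for c4b and at 0.133 to 0.838 FPKM for the C4 match ENSORLG00000006961. c5, the precursor of the anaphylatoxin C5a and of the first pore component, was at 0.113, 0.579 and 1.19 FPKM in wild type and at 0.150, 0.0587 and 0.278 FPKM in the mutant. Of 3 other C3 matches, 2 had reads in wild type 3 and mutant 3 only, 1 to 5 in each, and the third (ENSORLG00000017769) had 2 to 19 reads in each library.

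**Figure D5:**
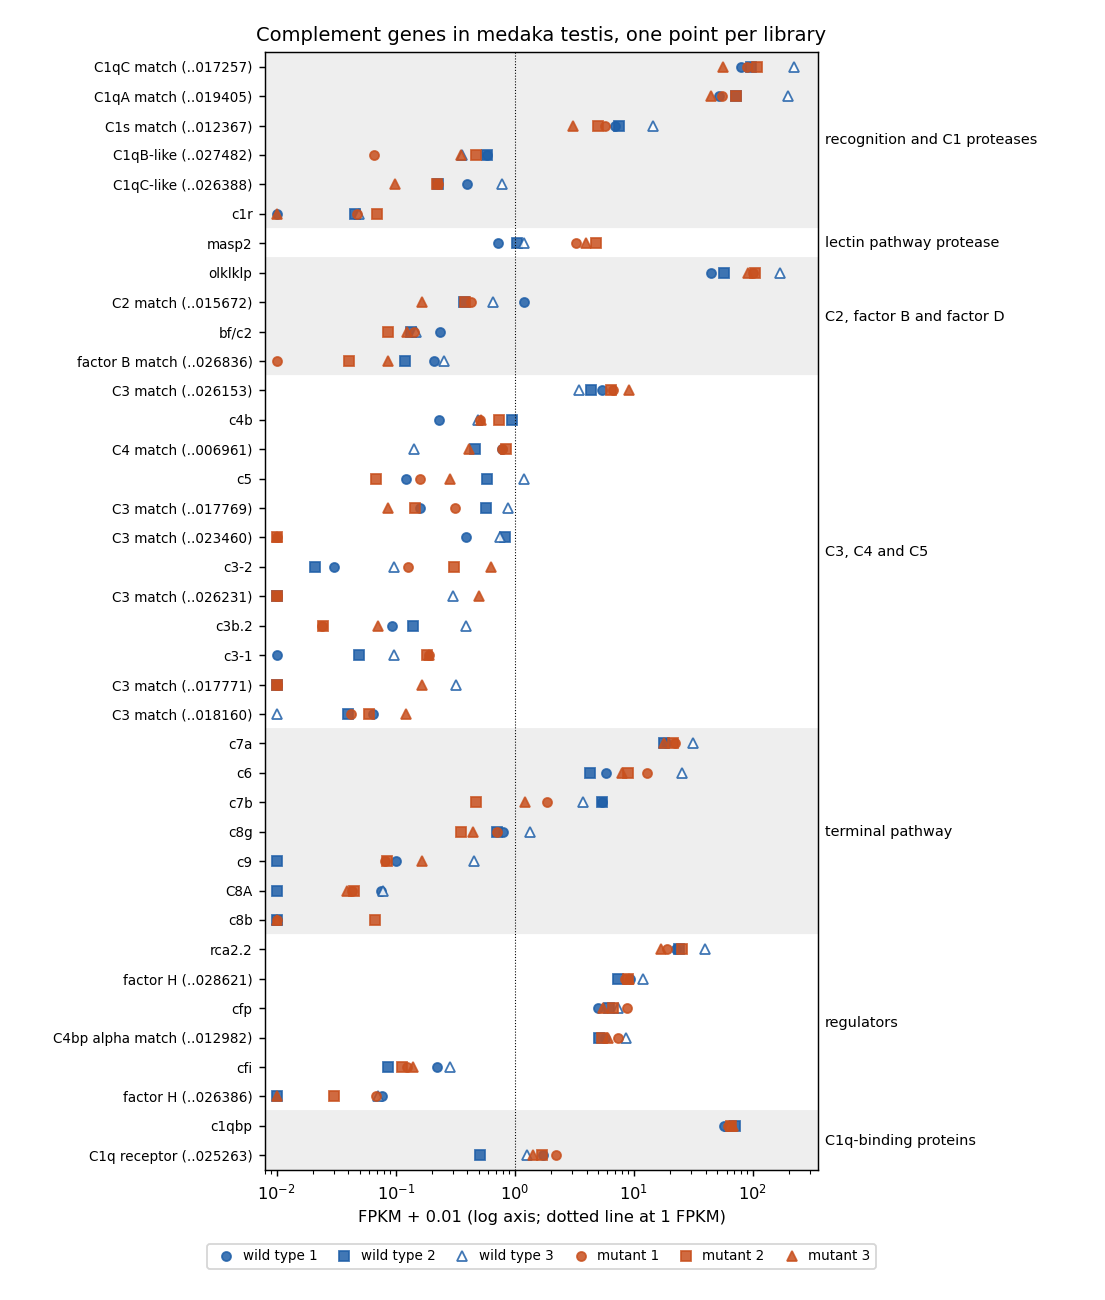
Each row is 1 of the 38 complement genes, ordered by role, and each symbol is the FPKM of 1 library plus 0.01 on a log axis, in blue for wild type (open triangles for wild type 3) and in orange for the mutant. The C1qA and C1qC matches, olklklp, c1qbp, rca2.2 and c7a lie to the right of 10 FPKM, and most genes of the C3, C4 and C5 group lie to the left of the dotted line at 1 FPKM.

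The terminal pathway held a pair of C7 copies that differed in level and in their order by genotype. C7 anchors the growing pore in the membrane. c7b (ENSORLG00000014812, chromosome 12, 27858941 to 27886841, plus strand) was at 5.36, 5.41 and 3.74 FPKM in wild type and at 1.84, 0.462 and 1.2 FPKM in the mutant, from 635 reads against 149. No mutant library reached the lowest of wild type, with means of 4.84 ± 0.947 and 1.17 ± 0.690 FPKM (SD, n = 3). The log2 difference was -1.47 (SE 0.28, unadjusted p = 0.00112, rank 74 of 15203, adjusted p = 0.226, limma; exact permutation p = 0.1). It stayed between -2.15 and -1.21 over 14 alternatives, with an adjusted p in limma of 0.198 to 0.575. The sum of the hepatocyte markers was likewise lower in each mutant library, but its members differed. Of the 7 tested, apoa1b was at a log2 difference of -2.13, tfa at -1.61, hp at -0.79 and f10 at -0.57. The others were rbp4 at -0.01, serpinc1 at 0.29 and vtnb at 0.59. Without wild type 3, apoa1b was at -0.48, tfa at -1.24, hp at -0.32 and f10 at -0.71. The fibrinogen genes fga and fgb were near 0 throughout, at no more than 0.108 FPKM. The part of liver-type RNA in the level of c7b was not tested.

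c7a (ENSORLG00000004192, chromosome 9, 8541114 to 8549714, plus strand) was the more abundant copy, at 18.6, 18.0 and 31.6 FPKM in wild type and at 22, 21.5 and 17.7 FPKM in the mutant. Its groups overlapped (log2 difference -0.11, SE 0.23, adjusted p = 0.932, limma), and without wild type 3 its log2 difference was 0.14. c7b therefore made up 22.3%, 23.1% and 10.6% of the summed C7 FPKM in wild type and 7.73%, 2.11% and 6.34% in the mutant. These shares did not overlap, with means of 18.7% ± 7.0 and 5.39% ± 2.93 (SD, n = 3, exact permutation test, 2-sided, p = 0.1, the smallest value possible).

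c6, whose product joins the pore just before C7, is the neighbour of c7b at a distance of 2269 bases on the opposite strand (ENSORLG00000014843, chromosome 12, 27889111 to 27905360, minus strand). It was at 5.78, 4.28 and 25.5 FPKM in wild type and at 12.8, 8.90 and 7.99 FPKM in the mutant. The mutant libraries were above wild type 1 and 2 and below wild type 3. The log2 difference was 0.12 (SE 0.61, adjusted p = 0.971, limma) and, without wild type 3, 0.84 (SE 0.23, unadjusted p = 0.00938, adjusted p = 0.375, limma). The log2 differences of the neighbours c7b and c6 thus had opposite signs with and without wild type 3. With all libraries that of c6 was smaller than its SE.

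The genes that complete the pore had few reads. C8A had 0 to 7 reads per library, c8b had 2 reads in all, both from mutant 2, and c9, which polymerises to form the ring, had 0 to 12 reads with the most in wild type 3. C8A and c8b overlap on opposite strands. c8g, the gene of a lipocalin subunit of C8, was at 0.694 to 1.33 FPKM in wild type and at 0.344 to 0.699 FPKM in the mutant, but its best protein match is a methionine sulfoxide reductase, so its reads cannot be credited to C8. The deposited annotation lists a MAC/perforin domain, the pore-forming fold, in all 7 terminal pathway genes except c8g.

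Of 6 genes for regulators, 4 were abundant enough for the test. None of these had an unadjusted p below 0.05 in limma, against 7.13% of all tested genes, so few would be looked for among 4. rca2.2, a gene of the regulator of complement activation group (ENSORLG00000022462, chromosome 7, 23065025 to 23102829, minus strand), was the most abundant, at 22.4, 23.8 and 39.8 FPKM in wild type and at 18.9, 25.6 and 17.0 FPKM in the mutant (log2 difference -0.44, SE 0.26, adjusted p = 0.810, limma). Its groups overlapped through mutant 2, and the log2 difference was -0.19 without wild type 3 and -0.07 without wild type 3 and mutant 3. A gene described as factor H, the main fluid-phase inhibitor (ENSORLG00000028621), was among the steadiest members, at 9.32, 7.28 and 11.8 FPKM in wild type and at 8.44, 8.96 and 9.04 FPKM in the mutant (log2 difference -0.07, SE 0.18, adjusted p = 0.944, limma; 0.09 without wild type 3). Its best protein match is another protein of many sushi repeats, SVEP1.

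cfp, the gene of properdin, which stabilises the alternative pathway enzyme, was at 4.98 to 7.29 FPKM in wild type and at 5.49 to 8.78 FPKM in the mutant (log2 difference 0.16, adjusted p = 0.893, limma; 0.27 without wild type 3). The C4b-binding protein alpha chain gene (ENSORLG00000012982), for an inhibitor of the classical enzyme, was at 5.11 to 8.55 FPKM and 5.37 to 7.35 FPKM (log2 difference -0.02, adjusted p = 0.985, limma; 0.17 without wild type 3). cfi, the protease that inactivates C3b, had 5 to 16 reads per library, and a second gene described as factor H had 0 to 4. Levels of 2 genes for C1q-binding proteins also overlapped between the groups. c1qbp, whose product sits mainly in mitochondria, was at 57.4, 70.7 and 62.9 FPKM in wild type and at 61.9, 64.9 and 68.0 FPKM in the mutant (log2 difference 0.03, SE 0.12, adjusted p = 0.965, limma). The C1q receptor gene, a match to the endothelial protein CD93 (ENSORLG00000025263), was at 1.70, 0.504 and 1.25 FPKM in wild type and at 2.19, 1.69 and 1.41 FPKM in the mutant (log2 difference 0.39, adjusted p = 0.835, limma), in the same direction as the sum of the endothelial markers. The part of endothelium in this gene's level was not tested.

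Outside complement proper, the C1q/TNF-related proteins are secreted relatives of adiponectin. The 3 tested genes of the 7 were each higher in all mutant libraries, where the groups did not overlap in 14.0% of all tested genes. c1qtnf6b (ENSORLG00000021948, chromosome 1, 24755225 to 24767017, plus strand) was at 0.802, 0.849 and 1.40 FPKM in wild type and at 4.09, 3.10 and 2.28 FPKM in the mutant (log2 difference 1.03, SE 0.23, unadjusted p = 0.00299, adjusted p = 0.311, limma). Its paralogue c1qtnf6a (ENSORLG00000010706, chromosome 8, 18962763 to 18975029, plus strand) was at 2.99, 4.22 and 4.26 FPKM in wild type and at 7.90, 6.22 and 12.0 FPKM in the mutant (log2 difference 0.98, SE 0.25, unadjusted p = 0.00528, adjusted p = 0.381, limma). Both copies were thus more than 2-fold higher on the FPKM scale, by ratios of 3.10 and 2.28. c1qtnf5, whose human gene is mutated in a late-onset retinal degeneration (ENSORLG00000026920, chromosome 13, 16459263 to 16463521, minus strand), was at 1.55, 1.57 and 2.66 FPKM in wild type and at 4.18, 2.83 and 2.79 FPKM in the mutant (log2 difference 0.55, SE 0.22, unadjusted p = 0.0422, adjusted p = 0.683, limma). The other 4 were below the filter, with c1qtnf2, c1qtnf4 and c1qtnf7 at 0 to 1.37 FPKM and no read on si:ch211-219a15.3. The groups overlapped in c1qtnf2, c1qtnf4 and c1qtnf7. Ratios of mutant to wild-type mean were 0.720 for c1qtnf2, 1.65 for c1qtnf4 and 0.551 for c1qtnf7.

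The C1q-like proteins are secreted mainly at synapses in mammals, and their genes were low in testis. c1ql2 (ENSORLG00000027553, chromosome 2, 18304571 to 18305804, minus strand) was at 1.96, 1.62 and 3.04 FPKM in wild type and at 0.364, 1.24 and 1.11 FPKM in the mutant, from 4 to 32 reads per library. Its groups did not overlap (log2 difference -0.76, SE 0.28, unadjusted p = 0.0312, adjusted p = 0.636, limma). With a mutant mean of 0.906 FPKM, c1ql2 passed the filter only through the wild-type group, where it is high. c1ql3b, below the filter, had 3, 0 and 4 reads in wild type and 11, 8 and 17 reads in the mutant, the opposite order (unadjusted p = 0.00573 and adjusted p = 0.405 in limma without the filter). ENSORLG00000004178 had 199 reads in wild type 3, 26 in mutant 2 and none in the other libraries. Those are the same 2 libraries in which the intestine markers were highest, at 277 and 59.9 FPKM.

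Of the 23 genes with only the EGF-like domain name, 14 were tested. An unadjusted p below 0.05 in limma was found for 1 of the 14 (7.14%, against 7.13% of all tested genes), and the groups were apart in 3 (21.4%, against 14.0%). ldlrb, a low-density lipoprotein receptor gene (ENSORLG00000003886, chromosome 1, 10464067 to 10472992, minus strand), was at 3.74, 4.36 and 4.90 FPKM in wild type and at 2.19, 2.17 and 2.89 FPKM in the mutant (log2 difference -0.64, SE 0.17, unadjusted p = 0.00628, adjusted p = 0.398, limma). Its ratio of 0.557 held without overlap. The groups were also apart in scube2, for a secreted protein that releases hedgehog ligands, at 2.62 to 2.95 FPKM in wild type and 1.82 to 2.17 in the mutant (log2 difference -0.31, adjusted p = 0.770, limma). The same was so for si:dkey-235d18.5, at 1.45 to 1.59 and 1.79 to 2.13 FPKM (log2 difference 0.21, adjusted p = 0.849, limma). Below the filter, fbn2b, a fibrillin gene for fibres of the extracellular matrix, was at 0.367, 0.213 and 0.565 FPKM in wild type and at 0.968, 1.04 and 0.954 FPKM in the mutant, from 137 against 350 reads. Its groups were apart too (unadjusted p = 0.0116 and adjusted p = 0.480 in limma without the filter). The median log2 difference of the 14 tested genes was 0.09, that of the 15 tested complement genes -0.02, and that of the 6 tested C1q domain genes 0.32, against 0.01 for all tested genes.

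Complement genes were often at their highest in wild type 3. It was the highest library for 9 of the 15 tested complement genes and for 15 of the 35 tested members, where it was the highest for 27.6% of all tested genes. Summed over the 38 complement genes, the level was 325, 384 and 811 FPKM in wild type and 409, 449 and 344 FPKM in the mutant. Leaving wild type 3 out moved the median log2 difference of the tested members from 0.05 to 0.16 and the count with an unadjusted p below 0.05 from 9 of 35 to 11 of 34, with 0 called by limma in both cases. Over all tested genes the median stayed at 0.01 and the share with an unadjusted p below 0.05 went from 7.13% to 8.29%.

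A list of 42 further symbols of the pathway (lectins, membrane regulators, receptors and pentraxins) matched 15 genes outside the members. 9 of these were tested, 4 higher and 5 lower in the mutant. Of the 9, 0 were called, against 0.0592% of all tested genes. An unadjusted p below 0.05 in limma was found for 2, against 7.13% of all tested genes. COLEC12, a scavenger receptor with a collectin domain, was at 9.18, 7.10 and 7.69 FPKM in wild type and at 6.35, 3.86 and 4.44 FPKM in the mutant (log2 difference -0.63, SE 0.20, adjusted p = 0.511, limma). A second gene of that name, colec12 (ENSORLG00000017886), overlapped between the groups and went the other way. It was at 0.773 to 3.78 FPKM in wild type and 1.52 to 4.63 FPKM in the mutant (log2 difference 0.35, adjusted p = 0.891, limma; 0.77 without wild type 3). vtnb, for vitronectin, which blocks pore insertion, was at 1.59, 1.30 and 1.32 FPKM in wild type and at 2.31, 3.28 and 2.35 FPKM in the mutant (log2 difference 0.59, SE 0.18, adjusted p = 0.511, limma). The groups did not overlap in COLEC12, in vtnb or in clusterin, described next, so in 3 of the 9, against 14.0% of all tested genes. Clusterin (clu), another inhibitor of the pore and a known product of Sertoli cells in mammals, was more abundant than any complement gene by its mean, at 171, 158 and 176 FPKM in wild type and at 183, 244 and 179.7 FPKM in the mutant (log2 difference 0.25, adjusted p = 0.804, limma). cd59, the membrane inhibitor of pore assembly, was at 21.2 FPKM in wild type 3 and at 0.691 to 4.26 FPKM in the other libraries (log2 difference -1.36, adjusted p = 0.810, limma; -0.56 without wild type 3). Of the genes of lectins that can bind MASPs, colec11 was at 2.33 to 4.00 FPKM in wild type and 1.36 to 3.64 FPKM in the mutant (log2 difference -0.41, adjusted p = 0.841, limma; -0.27 without wild type 3). COLEC10 was at 7.27 FPKM in wild type 3 and 0.302 to 1.02 FPKM in the other libraries, with a log2 difference of -0.79 that became 0.03 without wild type 3.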

How the data were processed

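The authors deposited 1 FPKM value per gene and library, together with the gene length in bases that divides it. Per the submitters' processing notes the tools were DESeq2 1.20.0, featureCounts 1.5.0-p3, HISAT2 2.0.5, fastp and CASAVA 1.8, with no step assigned to any of them. Build, annotation release and strand setting are not given in the sources used here, so coordinates are those of the deposited table. Whole reads were recovered from FPKM and length (100% of values within 0.01 read). limma 3.58.1 in R 4.3.3 compared 3 with 3 libraries on log2(FPKM + 1), with an intensity trend, robust moderation and no covariate, over 15203 genes. Exact permutation tests used SciPy 1.17.1. Replicates are separate pools of 2 fish, and p-values measure the spread between these libraries. Symbols came from the deposited table, and for 4 members from the RefSeq table of ASM223467v1. Genes with "match" carry the name of their Swiss-Prot hit. Genes given as "described as" carry that of their description, and their Swiss-Prot hit may differ.

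The members, the pathway list and the marker lists were chosen with earlier results of these data known. Named in full were nphp4, members with an unadjusted p below 0.05 or with groups apart, the 5 most abundant members, c7b, masp2, their paralogues and partners, and pathway genes with an unadjusted p below 0.05. Other genes with values were chosen after these were seen. Floors of 3 reads cover counting error only. The fit was tested on simulated data, and 14 alternatives were run.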

Additional observations from a re-analysis of the deposited data

How the results depend on the processing

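No member and no gene of the pathway list was called under any alternative run, an FDR of 0.1 included for the members. Calls were rare among all genes too. At an FDR below 0.05 the alternatives called 0 (limma-voom) to 18 (without wild type 3) of the 14782 to 22197 genes tested. The count of members with an unadjusted p below 0.05 was 9 of 35 in the main fit, against 7.13% of all tested genes. It was 15 of 75 members without the filter, where fewer reads support each added gene, and 12 of 55 with a filter of 0.3 FPKM. The shares of all tested genes in these 2 fits were 7.12% and 7.27%. limma-voom on recovered reads gave 8 (6.19% of all tested genes), and leaving out 1 library gave 6 to 11 (5.23% to 8.29% of all tested genes). The members' median log2 difference was 0.05 and ranged from -0.15 (without wild type 2) to 0.19 (without wild type 3 and mutant 3), with an SD between libraries of 0.212. Library totals and limma-voom moved the median of all genes to 0.06. Correlations between libraries of the same replicate number were 0.31, -0.56 and -0.42. The highest between any wild-type and mutant library was 0.61, for wild type 3 with mutant 2. With 3 libraries per group these correlations cannot decide whether replicate numbers pair the libraries. The replicate block gave 7 members with an unadjusted p below 0.05 in limma, against 4.66% of all tested genes.

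Of 21 named genes, 15 kept their direction in all 14 alternatives, and the other 6 crossed 0 when libraries were left out. The lowest adjusted p in limma for any of the 21 was 0.0784, for nphp4 without wild type 3 and mutant 3. Among the members followed it was 0.0871, for masp2 with library totals. With 1 library left out, or both wild type 3 and mutant 3, the C1qC match ranged from -0.83 to 0.19, the C1qA match from -1.08 to 0.045, olklklp from -0.0073 to 1.01, c1qbp from -0.038 to 0.11, c7a from -0.25 to 0.23 and c6 from -0.33 to 0.96. Without wild type 3 and mutant 3, c1qbp was at -0.0069. Without wild type 3, c7a was at 0.14, and without wild type 1, c6 was at -0.14. Without mutant 1, c6 was at -0.060, and without mutant 3, c1qbp was at -0.00068. The cause was not tested. The 41 members below the filter had few reads per length, which limits their precision.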

Other observations

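Receptors for the fragments of C3 and C5 lie outside the annotation rule and were looked up after the other values were seen. si:ch73-160i9.1, whose best protein match is the zebrafish C3a receptor, was at 0.920 to 1.97 FPKM in wild type and at 1.08 to 2.88 FPKM in the mutant (log2 difference 0.14, adjusted p = 0.935, limma). A gene described as a C3a receptor (ENSORLG00000005029) was at 2.57 FPKM in wild type 3 and at 0.324 to 0.679 FPKM in the other libraries (log2 difference -0.43, adjusted p = 0.864, limma), and without wild type 3 the group means were 0.461 and 0.467 FPKM. No read fell on a gene described as a C5a receptor 1-like (ENSORLG00000013340) in any library.

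Among the hepatocyte markers, tfa, for the iron carrier transferrin, was at 61.2, 57.3 and 130 FPKM in wild type and at 17.4, 39.1 and 21.5 FPKM in the mutant (log2 difference -1.61, adjusted p = 0.398, limma). vtnb, another of these markers, was higher in each mutant library (log2 difference 0.59, adjusted p = 0.511, limma). apoa1b was at 152 FPKM in wild type 3 and at 1.73 to 5.50 FPKM elsewhere. The fibrinogen genes fga and fgb stayed at 0 to 0.108 FPKM in every library.

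csmd2, a membrane protein with many CUB and sushi domains, was below the filter at 0.744, 0.883 and 0.944 FPKM in wild type and at 0.164, 0.225 and 0.564 FPKM in the mutant, from 429 against 162 reads. Its groups did not overlap (adjusted p = 0.545 in limma without the filter).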
